A study of Mus musculus with 4 samples.

Results

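The genes described here were Fos, Jun, Junb and Jund, 4 members of the AP-1 transcription factor family. They were chosen by name: every feature whose platform gene symbol was Fos, Jun, Junb or Jund was taken, which gave 5 of the 16281 features of the arrays. Fos had 2 features, and Jun, Junb and Jund had 1 each. All 5 had a value on each of the 4 arrays, so no member was lost to the treatment of exact zeros as missing.

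The arrays compared dentate gyrus RNA, from the hippocampus, taken from mice given MK-801 (dizocilpine, which plugs the channel of NMDA-type glutamate receptors) and from mice given saline. All animals were young male C57BL/6J mice. The labels give the amounts as 300 µg MK-801 and 5 µL saline per g body weight, and the first is printed as labelled although it is unusually high for a mouse. There was 1 array for each of 4 times, 1, 2, 4 and 6 h, with MK-801 RNA in Cy5 and saline RNA in Cy3 on each, and no array was repeated or dye-swapped. The labels set the time from the end of a shock treatment and call the RNA of both channels that of controls, so whether these mice were shocked is unsettled. The number of mice behind each RNA is not stated.

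Values are centred log ratios, read as log2. The labels settle neither the log base nor the direction: a positive value may mean more RNA in the MK-801 channel or in the saline channel. The sign printed is that of the deposited table, and nothing below says which treatment was higher. The spread of the arrays differed, and the median absolute deviation was 0.216, 0.156, 0.153 and 0.141 in order of time. Across 7684 named features the 1 h array correlated with the 2, 4 and 6 h arrays at r = -0.06, -0.07 and -0.07, and the later arrays with each other at 0.64 to 0.80. With features at or under -1.5 on any array left out, these were -0.13, -0.14 and -0.14, and 0.46 to 0.70 (Pearson's r taken over features, which do not stand for independent samples).

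AP-1 is a dimer of leucine zipper proteins. Fos proteins bind DNA only when paired with a Jun protein, while Jun proteins also pair with each other. Fos, Jun and Junb are immediate early genes: neurons transcribe them within minutes of calcium entry, including entry through NMDA receptors, without new protein synthesis, and the transcripts decay quickly. Jund is the member of the family with the steadier basal expression. Granule cells of the dentate gyrus are a standard setting for reading Fos as a sign of recent activity.

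The stretches before the annotated gene starts are shown because these genes are switched on through short elements close to the start. They come from RefSeq (build GRCm38.p6), in the sense direction. The search covered the 250 bases before the start of each of the 4 genes, and the last 140 of these are printed for the 3 genes with a match. Capitals mark the letters TGACG (the first letters of the cAMP response element), TGACATCA (an AP-1-like site known from the Jun promoter), TATAAA and CCAAT where a search of both strands found them.
Fos, chr12:85473750-85473889, plus strand: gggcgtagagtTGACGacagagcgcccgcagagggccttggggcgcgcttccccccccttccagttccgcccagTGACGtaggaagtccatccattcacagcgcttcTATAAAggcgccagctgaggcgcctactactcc
Jun, chr4:95052223-95052362, minus strand: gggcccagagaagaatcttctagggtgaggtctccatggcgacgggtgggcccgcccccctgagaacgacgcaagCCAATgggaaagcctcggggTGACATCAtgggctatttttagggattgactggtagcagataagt
Junb, chr8:84978749-84978888, minus strand: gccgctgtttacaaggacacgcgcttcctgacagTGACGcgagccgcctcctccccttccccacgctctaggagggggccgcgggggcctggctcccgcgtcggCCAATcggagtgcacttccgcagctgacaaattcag

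Counted from -1 at the base before the start, Fos held TGACG at -129 to -125 and again at -66 to -62, and TATAAA at -33 to -28. Jun held TGACATCA at -45 to -38 and CCAAT at -65 to -61, and Junb held TGACG at -106 to -102 and CCAAT at -36 to -32. In windows of 250 bases before the start, TGACG was in 17.8% of 32851 promoters, TGACATCA in 2.9%, TATAAA in 12.4% and CCAAT in 33.8%. The whole cAMP response element TGACGTCA, which contains TGACG (1.5% of promoters), the AP-1 site TGACTCA (4.5%) and the CArG box bound by serum response factor (1.5%) were in none of the 4 windows of 250 bases. The Jund window of 250 bases held none of the motifs searched. A match describes the letters and is no evidence of binding. Bases farther than 250 before the start were not searched, so a motif absent here, the CArG box included, may lie farther upstream.

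The Fos transcript, which encodes the partner that needs a Jun protein to bind DNA, was read by 2 features that gave different results. The feature numbered 15860, designed on the accession V00727, had a centred log2 ratio of 1.17 at 1 h, then -1.06 at 2 h, -1.17 at 4 h and finally -1.01 at 6 h. Its ratio was thus far above 0 on the first array and far below 0 on the other 3, which lay within 0.16 of each other. As channel folds these are 2.24, 2.09, 2.26 and 2.02, the first in the positive direction and the rest in the negative. It lay at percentile 99.2, 0.9, 1.8 and 1.4 of all features with a value at 1, 2, 4 and 6 h.

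The feature numbered 13010, designed on NM_010234, had log2 ratios of 0.11, 0.02, 0.01 and 0.02 at the same times. The values lay close to 0 on every array, at percentile 63.0, 53.5, 51.8 and 53.6. The features are annotated to the same gene and were hybridised to the same RNA, so a single Fos result at these times cannot be given. They are not replicates of animals.

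**Figure D1:**
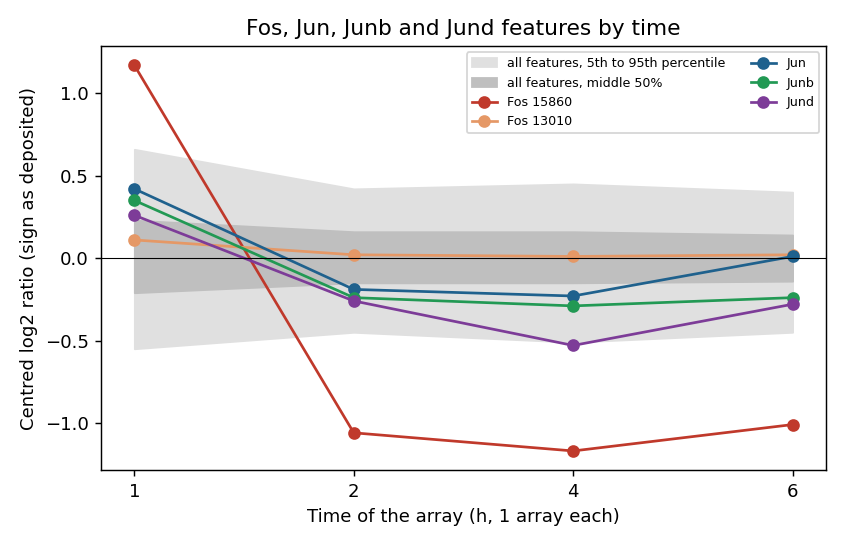
Centred log2 ratio, with the sign as deposited, of the 5 features at 1, 2, 4 and 6 h (1 array each, times evenly spaced). Grey bands hold the middle 50% and the 5th to 95th percentile of all features with a value. Fos feature 15860 lies outside the wider band on each array, Fos feature 13010 stays between 0.01 and 0.11, and Jun, Junb and Jund lie above 0 at 1 h and below 0 at 2 and 4 h.

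Jun, the partner that can also form dimers without Fos, had a log2 ratio of 0.42 on the 1 h array, -0.19 on the 2 h array, -0.23 on the 4 h array and 0.01 on the 6 h array. It was above 0 at 1 h, below 0 at the middle times and near 0 on the last array (percentile 87.7, 20.3, 16.5 and 51.9). Junb, a Jun protein of weaker transcriptional activity that can restrain Jun, had 0.35, -0.24, -0.29 and -0.24 at 1, 2, 4 and 6 h. Its 3 later values lay within 0.06 of each other, at percentile 14.8, 11.8 and 14.0, against 83.7 at 1 h.

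Jund had log2 ratios of 0.26, -0.26, -0.53 and -0.28 at 1, 2, 4 and 6 h. Its lowest value, at 4 h, corresponds to a channel fold of 1.45 and was at percentile 4.7 of that array, while its 1 h value was at percentile 77.3. Jund thus had the lowest ratio of the 3 Jun genes at each later time and the smallest of the 3 at 1 h. With 1 array per time, these neighbouring values have no replicate error and their order was not tested.

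All 5 features were above 0 at 1 h, with a median of 0.35, beside a median of 0.00 over the 12131 features with a value there, which centring fixes. At 2, 4 and 6 h, 4, 4 and 3 of the 5 were below 0, with medians of -0.24, -0.29 and -0.24. Positive at 1 h and negative at the 3 later times were 3 of the 5 (Fos feature 15860, Junb and Jund), and 1126 of 7684 features with 1 symbol and values on all arrays (14.7%). Fos feature 15860 was the 1 feature of the 7684 with at least 1 at 1 h and at most -1 at 2, 4 and 6 h, a pattern looked for after its values were seen.

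Of the 5 features, 1 had an absolute log2 ratio of at least 1 (2-fold) at each time, and it was Fos feature 15860 each time. Over all named features with a value the share past this limit was 2.13%, 0.969%, 2.21% and 1.6% at 1, 2, 4 and 6 h. No error can be attached to these counts, since each rests on 1 array. With the arrays brought to equal spread, the count at 1 h was 0 of 5.

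The step between the first 2 arrays was the main change within each series. From 1 h to 2 h the log2 ratio was lower by 2.23 for Fos feature 15860 (the difference 2 h minus 1 h was -2.23, at percentile 0.2 of all features with values on all arrays). The same difference was -0.60 for Jun, -0.59 for Junb and -0.52 for Jund, at percentile 6.4, 6.8 and 9.3, and -0.09 for Fos feature 13010, at percentile 36.5. The differences 4 h minus 2 h were -0.27 for Jund and between -0.11 and -0.01 for the other features. The differences 6 h minus 4 h were 0.26 for Jund, 0.24 for Jun, 0.16 for Fos feature 15860, 0.06 for Junb and 0.01 for Fos feature 13010.

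The mean over the 4 times was tested against 0 in limma, its error being the spread of the 4 times. It was -0.52 ± 0.39 (SE) for Fos feature 15860, 0.04 ± 0.06 for Fos feature 13010, 0.00 ± 0.12 for Jun, -0.11 ± 0.12 for Junb and -0.20 ± 0.13 for Jund. None of the 5 passed an adjusted p of 0.05 (limma, adjusted p from 0.475 for Jund to 0.994 for Jun). Of all 7684 features 0 passed as well (0%), with 1138 at an unadjusted p under 0.05. For Fos feature 15860, Junb and Jund the mean over the 4 times averages a 1 h value of one sign with later values of the other. For Jun the sign differed from 1 h at 2 and 4 h, and Fos feature 13010 kept 1 sign.

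The slope on log2 hours was -0.80 ± 0.25 per doubling of time for Fos feature 15860, -0.23 ± 0.09 for Jund, -0.22 ± 0.09 for Junb, -0.16 ± 0.10 for Jun and -0.03 ± 0.06 for Fos feature 13010 (SE). All 5 estimates were below 0 and none passed (limma, adjusted p from 0.284 for Fos feature 15860 to 0.795 for Fos feature 13010). Fos feature 15860 and Junb had an unadjusted p under 0.05, at 0.0195 and 0.0478. Of all features 0 passed (0%), with 1187 at an unadjusted p under 0.05. Without the 1 h array the slopes were 0.02 for Fos feature 15860, -0.04 for Jund, -0.005 for Junb, 0.11 for Jun and -0.002 for Fos feature 13010, so the negative slopes rested on that array.

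Late times (4 and 6 h) were also set against early times (1 and 2 h), each pair of neighbouring times serving as replicates. This difference was -1.15 ± 0.71 for Fos feature 15860, -0.40 ± 0.22 for Jund, -0.32 ± 0.22 for Junb, -0.23 ± 0.24 for Jun and -0.05 ± 0.13 for Fos feature 13010 (SE). None of the 5 passed (limma, adjusted p from 0.768 to 0.918), nor did any of the 7684 features (0%, with 437 at an unadjusted p under 0.05). Without the 2 h array the 1 h array alone stood for early times and was taken to vary like the late ones. Fos feature 15860, Junb and Jund then passed (adjusted p 0.0116, 0.033 and 0.0477), among 1332 features in all. Without the 1 h array the differences were -0.03 for Fos feature 15860, -0.145 for Jund, -0.026 for Junb, 0.08 for Jun and -0.007 for Fos feature 13010, and none passed (adjusted p from 0.695 to 0.979).

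Over the 2, 4 and 6 h arrays alone the mean log2 ratio was -1.08 ± 0.06 for Fos feature 15860, -0.36 ± 0.08 for Jund, -0.26 ± 0.06 for Junb, -0.13 ± 0.07 for Jun and 0.02 ± 0.05 for Fos feature 13010 (SE over 3 arrays). Fos feature 15860, Jund and Junb passed in the negative direction (limma, adjusted p 0.0013, 0.0412 and 0.0421), while Jun and Fos feature 13010 did not (0.219 and 0.849). In that fit 3 of the 5 features passed, beside 923 of all 7684 (12%). That the 1 h array differs from the others was known when this fit was chosen. MK-801 RNA was in Cy5 on every array. A constant dye bias of a feature and a treatment difference therefore cannot be told apart in a mean over arrays.

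**Figure D2:**
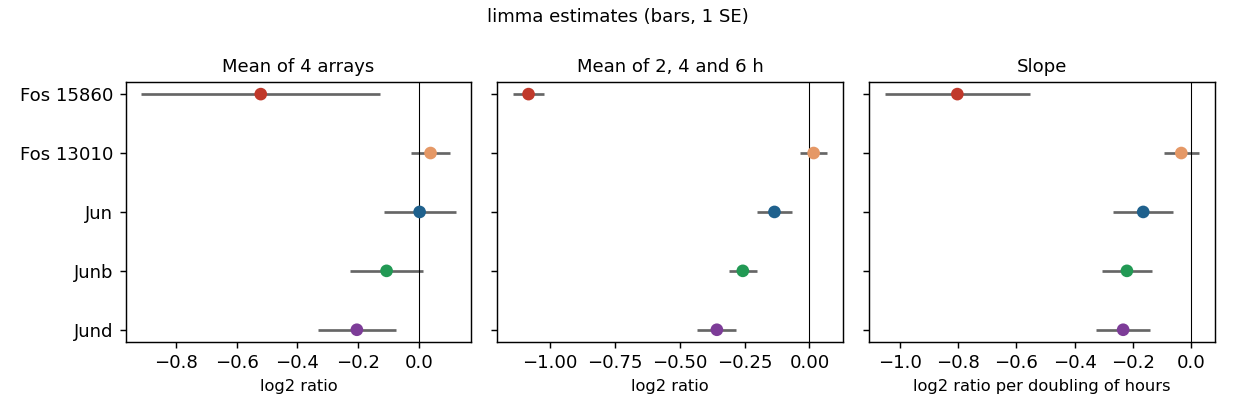
limma estimates of the 5 features (points; bars, 1 SE): the mean log2 ratio of the 4 arrays, the mean of the 2, 4 and 6 h arrays, and the slope per doubling of hours. The bars of Fos feature 15860, Junb and Jund are narrower without the 1 h array, and Fos feature 13010 lies near 0 in each panel.

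The gap between both Fos features was set beside the same gap for other genes with several features. The Fos features differed by 1.06, 1.08, 1.18 and 1.03 (absolute log2) at 1, 2, 4 and 6 h. Over all pairs of features of 1 symbol the median gap was 0.29, 0.20, 0.18 and 0.15 at these times. Of 2151, 1907, 1628 and 1607 pairs, 109, 45, 166 and 76 had a larger gap than the Fos pair, which lay at percentile 94.9, 97.6, 89.7 and 95.2. Disagreement of the Fos size was therefore uncommon on these arrays but not confined to Fos.

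**Figure D3:**
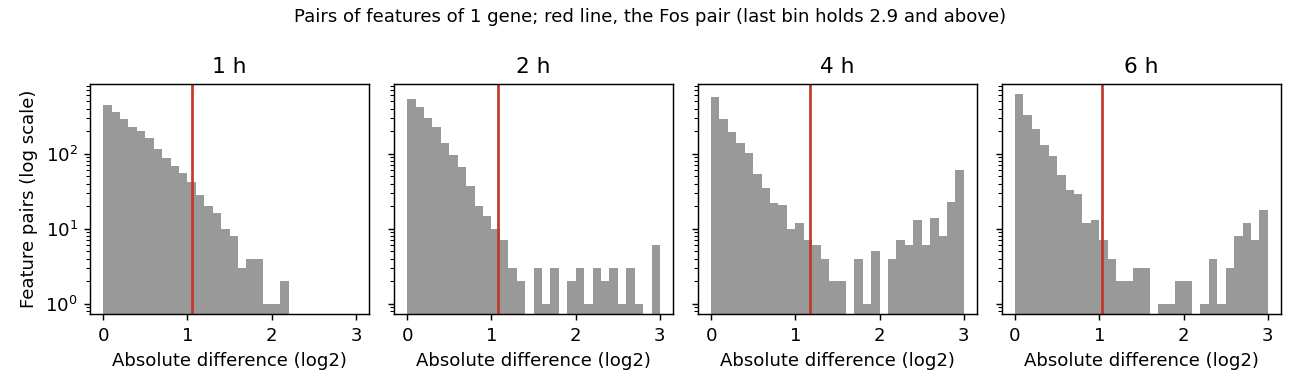
Absolute log2 difference between features of the same gene on each array (number of pairs, log scale; the last bin also holds larger values). The red line marks the Fos pair, at 1.06, 1.08, 1.18 and 1.03, and a second group of pairs with gaps above 2 is seen at 2, 4 and 6 h.

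Features with numbers close to 15860 had low ratios at the later times as well. Of the features within 10 numbers of it, 6 of 16 with a value were at or below -1 at 2 h, 5 of 13 at 4 h and 6 of 15 at 6 h, against 0 of 13 at 1 h. Their medians were 0.06, -0.49, -0.72 and -0.66 at 1, 2, 4 and 6 h, and the last 3 lay at percentile 0.3, 0.4 and 0.5 of the medians of all such neighbourhoods with at least 10 values. A feature of Hspa1b, an inducible heat shock protein, at number 15862, read 0.61, -1.54, -2.29 and -1.93. It was above 0 at 1 h and below -1 afterwards like Fos feature 15860. Another feature of Hspa1b differed from it by 0.064 at 1 h, and its later values are not given here. A feature without a symbol at number 15859 read -0.91, -3.12, -3.78 and -2.73. The features at 15862 and 15859 were named after their values were seen.

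Within 100 numbers of Fos feature 15860, 20.4%, 21.1% and 20.7% of features with a value were at or below -1 at 2, 4 and 6 h, beside 0.96%, 2.0% and 1.44% over each whole array. At 1 h these shares were 2.6% and 0.41%. The other 4 features had 0 neighbours at or below -1 within 10 numbers on any array. The part that position on the array has in the low Fos ratios was not tested, and the feature number is not stated to give a position.

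**Figure D4:**
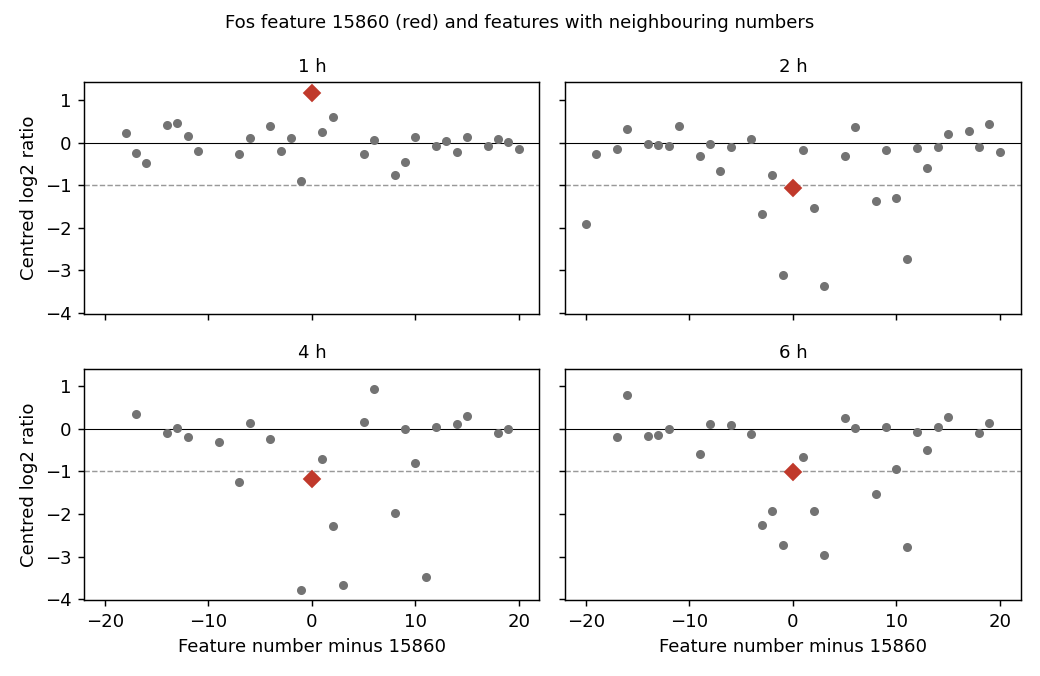
Centred log2 ratio of Fos feature 15860 (red) and of the features within 20 numbers of it (grey) on each array, against the difference in feature number. The dashed line marks -1, below which 8, 6 and 7 of the neighbours lie at 2, 4 and 6 h and 0 at 1 h.

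All features of an array share its RNA pools and scan. The features of other genes nearest to each member were found by Euclidean distance over the 4 arrays. For Fos feature 15860 they were Hdhd2 at 0.70, Ctnnd1, a catenin that binds cadherins, at 0.78 and Fam166c at 0.81, so no feature of another gene came close. For Fos feature 13010 they were Fzr1, Fscn1 and Ndufb3, all within 0.04. For Jun they were Arhgap42, B4galnt1 and Cdca5 (0.07 to 0.10), and for Jund Tfeb, Gpr50 and Mknk2 (0.06 to 0.10). For Junb they were Prm1, Batf2 and Kcnj12, all at 0.08. Each match is that of a feature and not of the whole gene. At 1 h another feature of the same gene differed by 1.026 for Hdhd2, 0.136 for Ctnnd1 and 0.664 for Fam166c. That gap was 0.182 for Gpr50, 1.376 for Prm1 and 1.569 for Kcnj12. Among the members themselves Junb lay at 0.26 from Jund and 0.27 from Jun, while Fos feature 15860 lay at 1.56 to 2.18 from the others.

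Other genes of the AP-1 family had 13 features of 12 genes out of 16 listed, and 0 of the 9 features with values on all arrays passed in the mean, slope or late against early fit. Their medians were 0.09, 0.08, -0.19 and -0.01 at 1, 2, 4 and 6 h. Fosl2, a Fos-related partner of Jun proteins, read -1.07 at 1 h and 0.47 at 2 h, with no value later, and Fosl1 read -0.40 at 2 h and -0.44 at 6 h. Fosb was listed but had no feature with 1 symbol, so it has no value here. Batf, an AP-1 factor of immune cells, read 0.93, 0.07, 0.17 and 0.42, Atf3, a stress-induced member, 0.30, -0.07, -0.08 and 0.43, and Atf4 0.18, 0.31, 0.11 and 0.03. Batf2 read 0.35, -0.24, -0.25 and -0.30, close to Junb. One feature of Atf2, a partner of Jun, read -0.63, -3.13, -3.69 and -2.53, and the other -0.03, 0.31 and 0.26 at 2, 4 and 6 h. Its features thus also disagreed, by more than those of Fos at these times, and could not be compared at 1 h.

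Kinases and factors upstream of Fos and Jun had 36 features of 22 genes out of 33 listed, with medians of -0.03, 0.11, 0.01 and 0.02 at 1, 2, 4 and 6 h. None of the 25 features with values on all arrays passed in any of the 3 fits. Srf, which drives Fos through the CArG box, read 0.24, -0.15, -0.13 and -0.13. The features of Creb1, which binds the cAMP response element, read -0.03, 0.23, 0.10 and 0.01, and -0.17, -0.04, -0.06 and -0.11. Of the JNK kinases, which phosphorylate Jun, Mapk10 read 0.11, 0.29, 0.16 and 0.17 in 1 feature and -0.26, 0.23, 0.27 and 0.27 in the other. Mapk9 read 0.03, 0.36, 0.39 and 0.22 in 1 feature, and the other had 0.25 at 1 h and -0.78 at 4 h. Mapk8 had -2.40 at 4 h in 1 feature and -0.03 and -0.35 at 2 and 6 h in the other.

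The largest absolute means of the upstream list belonged to Mapk8ip1, a JNK scaffold (-0.53, with a second feature at -0.02), Map2k1, a kinase of the ERK pathway (0.34, with a second feature at 0.10), and Crem (0.29). Among partners and turnover factors (31 features of 22 genes out of 26 listed, medians 0.09, 0.00, -0.09 and -0.05) 0 of 20 tested features passed in the 3 fits. The largest means there were those of Ets2 (-0.39), Zfp36l1, which promotes decay of AU-rich transcripts (0.32), and Nfatc3, which binds DNA together with AP-1 (0.28). Dusp1, a phosphatase that switches off the kinases of this pathway, read 0.46, 0.00, -0.23 and -0.35 in 1 feature and 0.36, 0.01, -0.21 and -0.34 in the other, so its features matched each other in sign at 1, 4 and 6 h.

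Genes known to carry AP-1 sites in their regulatory regions had 37 features of 22 genes out of 25 listed. Their medians were -0.10, 0.07, -0.04 and 0.03 at 1, 2, 4 and 6 h, and 0 of 18 tested features passed in the 3 fits. Timp1, an inhibitor of matrix metalloproteinases, read -0.62, -0.32, -0.58 and -0.53 in 1 feature and -0.12, -2.96, -3.36 and -3.21 in the other. Gfap, the astrocyte filament protein, read -0.11, 0.41, 0.32 and 0.42. Of these 18 features 1 was positive at 1 h and negative at all later times.

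Other immediate early genes had 48 features of 34 genes out of 39 listed. Some of these features were known from earlier results of these data to change sign after 1 h. Positive at 1 h and negative at 2, 4 and 6 h were 3 of the 5 AP-1 features, 10 of the 36 features of this list with values on all arrays, and 14.7% of all; this comparison was not tested. None of the 36 passed in any of the 3 fits. The median of the list was 0.08, -0.07, -0.08 and -0.09. Egr1, a zinc finger factor induced together with Fos, read 0.16, -0.37, -0.68 and -0.53. The largest absolute means were those of Per1 (-0.49, with a second feature at -0.40), Pcsk1 (0.43, with a second feature at 0.01) and Nr4a2 (-0.42). A second feature of Nr4a2 read -0.32, -0.02 and -0.19 at 1, 4 and 6 h, with no value at 2 h.

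Ratios alone cannot show whether the labelled tissue was obtained, since they hold no level. Of 9 granule cell markers 4 had a feature, and Prox1, which specifies granule cells, read -0.57, 0.04, 0.60 and 0.21, against medians of -0.21, -0.05, -0.03 and 0.02 for the list. The other features of the list at 4 h were those of Calb1 (-0.16 and -0.03), Neurod1 (-0.17) and Tdo2 (0.39), so the markers differed in sign. Choroid plexus markers, of a tissue beside the hippocampus, had a feature for 3 of 6 genes, with medians of -0.08, -0.55, -0.60 and -0.41 at 1, 2, 4 and 6 h. At 2, 4 and 6 h, 1, 1 and 2 of the 5 AP-1 features were above 0. Of the choroid plexus features with a value, 1 of 5, 0 of 3 and 0 of 4 were above 0. Centring leaves as many of all features above 0 as below it on each array. At 4 h the choroid plexus values ran from -3.03 to -0.11, and both ends were features of 1 gene, Kl. The remaining value was that of Ttr, at -0.60. The Kl features thus disagreed, and the list gives no single choroid plexus result at 4 h. The part of choroid plexus tissue in the AP-1 result was not tested. In such bulk RNA, fewer cells of a type and less RNA per cell cannot be told apart.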

How the data were processed

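The deposited values are log2 ratios of the 2 channels of each array as read here; per the labels, MK-801 RNA was in Cy5 and saline RNA in Cy3. Scanning, background correction and normalisation are not given in the sources used here. An exact 0 filled 24.9% to 37.4% of a column, where any other value was seen at most 3 times, so it was taken as no value. Each array was centred on its median (0.0052 to 0.0165 before centring). Features were named through the platform annotation (13738 of 16281 with 1 symbol, 52 with several, 2491 with none; 13694 matched GRCm38.p6 by Entrez identifier). limma 3.58.1 in R 4.3.3 (lmFit, eBayes) was fitted over 7684 features with 1 symbol and values on all 4 arrays, two-sided, with Benjamini-Hochberg adjustment. The error behind each p-value is the spread from one time to another, and the number of arrays limits precision. The fits were also run on simulated data with independent noise of equal spread on each array. The real later arrays correlated with each other and the spreads differed, so that run cannot tell how the fits behave on these arrays. Percentiles are over features with a value on that array. The members, gene lists, tests and most alternatives were chosen with earlier results of these data known. Named genes were all member features, the 3 nearest features by distance and the 3 largest absolute means of each list. Where they had a value, Fosb, Fosl2, Atf3, Srf, Creb1, Mapk8, Mapk9, Mapk10, Egr1 and Dusp1 were named as well. Batf2, Fosl1, Hspa1b, Prox1, Calb1, Neurod1, Tdo2, Kl and Ttr were named after their values were seen. Marker lists for 9 cell types were also read. Sequences and motif shares are from RefSeq promoters of GRCm38.p6, for which 4 of 4 genes matched.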

Additional observations from a re-analysis of the deposited data

Results flagged for a closer look

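Fos feature 15860 (1.17 at 1 h), Junb (0.35) and Jund (0.26) had ratios of the opposite sign at 2, 4 and 6 h, and Jun (0.42 at 1 h) at 2 and 4 h. With 1 array per time the difference between 1 h and a single later time was not tested. The slope on time, which uses all 4 arrays, passed for none of them (limma, adjusted p 0.284 to 0.447). Fos feature 13010 kept 1 sign throughout.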

How the results depend on the processing

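No paired analysis was possible because each time had 1 array and no replicate numbers. Over single features and alternatives, 178 estimates kept their direction and side of the threshold, 9 gained a call and 8 changed sign. The mean of Jun, 0.003, became -0.028 with equal spread, -0.0221 with quantile normalisation and -0.0705 with array weights, and ran from -0.135 to 0.0803 with single arrays left out. The gene mean of both Fos features was -0.241, opposite in sign to feature 13010. With single arrays left out the slopes ran from -0.323 to 0.106 (Jun), -1.17 to 0.0168 (Fos feature 15860), -0.322 to -0.005 (Junb) and -0.394 to -0.039 (Jund). Late against early ran from -0.526 to 0.0767 (Jun), -2.26 to -0.0297 (Fos feature 15860), -0.615 to -0.026 (Junb) and -0.66 to -0.145 (Jund), each nearest 0 or turned without 1 h. In the mean fit, Fos feature 15860, Jund and Junb passed with array weights (adjusted p 0.0101, 0.0197 and 0.03), which gave the 1 h array a weight of 0.205 and the 6 h array 3.304. Features passing in the mean fit numbered 0, and 15 with values on at least 3 arrays, 9 with quantile normalisation, 2088 with array weights and 0 to 923 with an array left out (923 without 1 h). For late against early 0 passed, 2 with exact 0 read as a value and 0 to 1332 with an array left out (1332 without 2 h). For the slope 0 passed, and 0 to 1 with an array left out (1 without 4 h). Equal spread left 0 member features past 1 at 1 h, and 40 of all features in place of 226. The causes were not tested. Read as natural logarithms, every size is multiplied by 1.443. No limma call changes, while features past 1 number 732, 235, 390 and 287 at 1, 2, 4 and 6 h, beside 226, 103, 197 and 147. Neighbours within 5 numbers of Fos feature 15860, a window chosen after seeing the data, had medians of 0.10, -1.16, -1.51 and -1.93 at 1, 2, 4 and 6 h, and within 20 numbers 0.03, -0.17, -0.10 and -0.14. Signal over background was not available here.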

Other observations

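Among marker lists not described above, the medians at 1, 2, 4 and 6 h were -0.09, 0.04, 0.11 and 0.08 for interneurons, -0.08, 0.04, 0.09 and 0.11 for astrocytes, and 0.01, 0.05, 0.13 and 0.05 for oligodendrocytes. They were 0.00, 0.02, -0.09 and 0.03 for microglia, 0.06, 0.00, 0.09 and 0.17 for endothelium, -0.23, -0.08, -0.05 and 0.05 for pyramidal neurons of other hippocampal fields, and 0.24, 0.39, 0.09 and 0.19 for blood, whose value at 4 h rests on 1 feature. Of features with values on all arrays, 1 of 5 pyramidal, 1 of 4 endothelial, 1 of 7 microglial, 1 of 8 astrocyte, 0 of 9 interneuron, 0 of 8 oligodendrocyte and 0 of 1 blood features were above 0 at 1 h and below 0 at each later time. No feature of any of them passed in the mean, slope or late against early fit over all features.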
